A study of Homo sapiens with 54 samples.

Results

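Removal of N-methylcytisine from Compound Kushen Injection (CKI) was compared with removal of each of 3 other compounds in MDA-MB-231 cells, a breast cancer cell line. The comparison took 12 of the 54 RNA-seq libraries of the series and 4 of its 18 groups, chosen by treatment, time and batch alone. These were the 3 libraries of cells given CKI without N-methylcytisine (N-Nme), and 9 libraries from cells given CKI without oxymatrine (N-Omt), without macrozamin (N-Mac) or without trifolirhizin (N-Tri), with 3 libraries each. All 12 came from batch 2 and from cells exposed for 48 h to a mixture equivalent to 2 mg/ml CKI, so every group held the other CKI components, and each of the other mixtures still held N-methylcytisine. For orientation, 3 libraries of cells given whole CKI at 2 mg/ml and 3 of untreated cells, of the same time and batch, were used as well. Every group is 1 cell line, the labels do not say whether replicates were separate cultures, and p-values then measure only the spread between these libraries. How much of each compound remained in the mixtures was not measured in these files.

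CKI is an injectable extract of the plants Sophora flavescens and Heterosmilax chinensis. N-methylcytisine and oxymatrine are quinolizidine alkaloids, the first of them a derivative of cytisine and a ligand of nicotinic acetylcholine receptors, whereas macrozamin is an azoxyglycoside and trifolirhizin a pterocarpan glucoside. Groups of genes that answer to treatment in tumour cells include the endoplasmic reticulum chaperones, which are induced when unfolded proteins accumulate in that compartment, the genes of mitosis, which are transcribed shortly before cell division, the cytokine genes, many of which are targets of NF-kB, and the immediate early genes, which are induced rapidly by growth factor and stress signals and include the subunits of AP-1.

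The 12 libraries held between 17673537 and 24603876 counted reads, and 14803 of 27978 genes had enough counts to be tested. All 8 markers of MDA-MB-231 were detected, with a summed level of 2876 to 3278 CPM (read counts scaled to a common library size) in N-Nme and 2880 to 3334 CPM in the other removals. Summed markers of other cell types stood at 14.8 to 24.8 against 20.2 to 38.5 CPM for fibroblasts, at 333 to 377 against 317 to 460 CPM for luminal epithelium and at 0.953 to 1.31 against 1.36 to 5.00 CPM for blood cells, of which 1 of 8 genes had no read in any library. The fibroblast sum hides a split. Of 7 fibroblast markers tested, 3 were higher and 2 lower than in N-Tri (median log2 fold change 1.44). Against N-Omt and against N-Mac 3 were lower and none higher (medians -0.71 and -1.03). Of the 10 fibroblast markers 5 had a mean below 0.5 CPM over the batch 2 libraries at 48 h. The luminal receptor genes ESR1 and PGR and the pan-leukocyte gene PTPRC had no more than 9 reads in any library. However, 7 of the 10 luminal markers had enough reads to be tested. The first principal component, with 57.4% of the variance, set the 3 N-Omt libraries apart from the other 9. The N-Nme libraries did not form a tight triplicate. N-Nme 1 and N-Nme 3 differed by a chi-square of 14.3 per gene, N-Nme 1 and N-Nme 2 by 7.01 and N-Nme 2 and N-Nme 3 by 5.03, whereas N-Nme 3 and the N-Tri libraries differed by 5.94 to 9.35. By this measure N-Nme 3 lay nearer to each N-Tri library than to N-Nme 1, whereas Pearson's r of log CPM did not separate them (0.993 with N-Nme 1 and 0.993 to 0.994 with N-Tri), and whether the library label is right was not tested. For some of the lists, though not all, counts are therefore also given with an N-Nme library left out. Histone transcripts, which normally lack a poly(A) tail, took 0.0186 to 0.0201% of reads in N-Nme and 0.0249 to 0.0597% in the other removals, and the part of this difference in the results was not tested.

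Against the mean of the other 3 removals, 6627 genes passed edgeR's quasi-likelihood test at a Benjamini-Hochberg adjusted p below 0.05, of which 3531 (23.9% of the genes tested) were higher in N-Nme and 3096 (20.9%) lower. Most differences were small, and 317 of the genes reached an absolute log2 fold change of 1. Taken separately, N-Nme differed from N-Omt in 9544 genes (33.0% higher and 31.5% lower), from N-Mac in 4566 (15.0% higher and 15.9% lower) and from N-Tri in 3014 (11.2% higher and 9.11% lower). The median absolute log2 fold change was 0.33 against N-Omt, 0.16 against N-Mac and 0.13 against N-Tri. The mean over the other removals was thus moved most by the difference from N-Omt, and with N-Omt left out of the mean 2992 genes passed, 1520 (10.3%) higher and 1472 (9.94%) lower. A total of 902 genes passed in the same direction against all 3 removals, 463 (3.13%) higher and 439 (2.97%) lower, although the 3 comparisons share the N-Nme libraries and are not independent. In bulk libraries a lower share of expressing cells and a lower level per cell cannot be told apart. Leaving out 1 library moved the count against N-Tri to as few as 1721 (without N-Tri 3), 1919 (without N-Tri 2) or 1961 (without N-Nme 2). By direction, the genes higher against N-Tri went from 1665 to 777 without N-Tri 3, and without N-Nme 3 the lower genes went from 1349 to 2198 and outnumbered the higher ones at 1869. Without N-Nme 1, N-Nme 2, N-Tri 1 and N-Tri 2 the higher genes numbered 1081, 925, 1033 and 878. The lower genes against N-Tri also outnumbered the higher ones without N-Nme 2 (1036), N-Tri 1 (1248), N-Tri 2 (1041) or N-Tri 3 (944). This held too without N-Omt 1 or N-Omt 2, and with library totals as the only scaling (1571 lower and 1422 higher). Which direction held more genes against N-Tri was thus not stable. Leaving out 1 library also moved the count passing against all 3 to 578 without N-Tri 3 and 588 without N-Nme 2, with 254 and 259 of them higher, and to 297 higher genes without N-Tri 2.

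When the 9 other libraries were treated as a single group, so that the differences among the 3 removals counted as error, 17 genes passed, 6 (0.0405%) higher and 11 (0.0743%) lower, and 3022 had an unadjusted p below 0.05. All 17 were among the 902, and they were chosen after their values were seen. The 11 lower genes were CACNB4, a calcium channel subunit (log2 fold change -0.93), STC1, a secreted glycoprotein (-0.61), F3, tissue factor (-0.57), NAB1 (-0.38), TNFSF15, a TNF family ligand (-1.13), COL4A2, a basement membrane collagen (-0.42), CXADR (-0.44), ADM (-0.79), FOSL2 (-0.36), TCAP (-0.87) and RAB11FIP4 (-1.39). The 6 higher genes were HCG18 (0.32), TSTA3 (0.42), CDC20 (0.56), RUFY1 (0.42), MOCOS (0.36) and PSME3, a proteasome activator (0.28). In this fit 1 of 29 genes of mitosis (CDC20) and 1 of 27 immediate early genes (FOSL2) passed, and 0 of 15 endoplasmic reticulum chaperones and 0 of 19 cytokines by edgeR, although at an unadjusted p below 0.05 all 15 chaperones and 16 genes of mitosis were higher and 11 cytokines and 12 immediate early genes lower. The list counts that follow rest on the spread between replicates of each removal and not on the spread among removals.

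Among genes of at least 5 CPM that passed against all 3 removals, the 10 with the largest rise were CIT, SHCBP1, KIF2C, NEK2, MKI67, BRCA1, KIF15, KIF4A, AGR2 and TOP2A, with log2 fold changes from 1.30 to 1.61 against the mean of the other removals. The 10 with the largest fall were FOS, IL1B, DHRS3, IGFL2-AS1, IL6, FOSB, SPINT1, TCN1, UCA1 and PPL, from -1.26 to -2.08. Each of the 10 rises was largest against N-Omt, as in SHCBP1 (3.94, with 0.39 against N-Mac and 0.42 against N-Tri). Several of the 20 belong to none of the groups described later. CIT, the citron kinase of cytokinesis, was at 20.3, 22.2 and 19 CPM in N-Nme and 1.47 to 15.7 with a median of 11.8 CPM in the other removals. AGR2, a disulfide isomerase of secretory cells, was at 12.2, 12.8 and 10.7 CPM and 2.05 to 6.73 with a median of 6.05 CPM. In both genes the N-Nme libraries lay above all 9 others. DHRS3, a retinal reductase, was at 1.91, 2.24 and 1.79 CPM in N-Nme against 4.02 to 13.5 with a median of 6.82 CPM, and SPINT1, an inhibitor of cell-surface serine proteases, at 14.4, 13.2 and 12.1 CPM against 22 to 64.3 with a median of 34.9 CPM. BRCA1, a DNA repair gene, was higher by a log2 fold change of 1.41 (SE 0.08), and PPL, the desmosomal periplakin, was lower at -1.26 (SE 0.11). From N-Omt, N-Mac and N-Tri, BRCA1 differed by 3.19, 0.38 and 0.64, and PPL by -2.13, -1.07 and -0.59. Levels of 8 genes are shown for each library in the plot of normalised read counts.

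**Figure D1:**
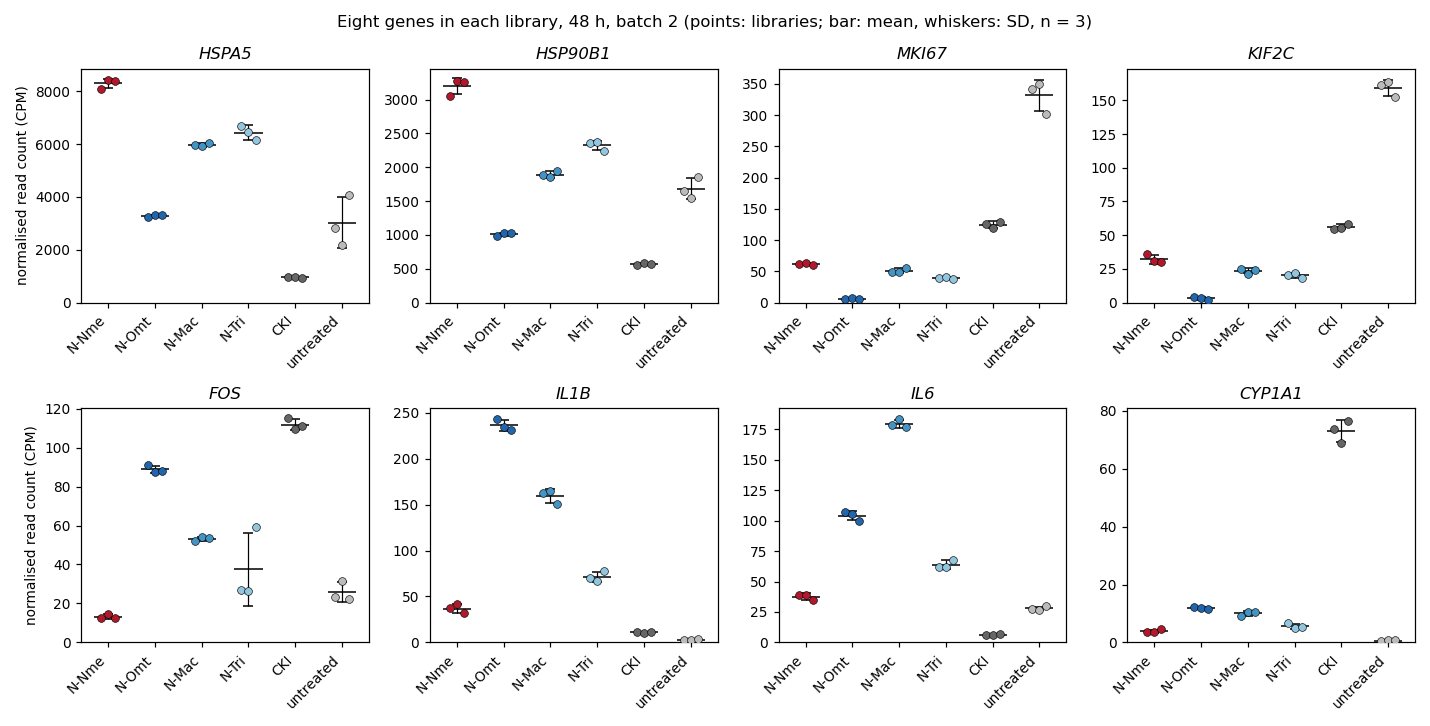
Normalised read count (CPM, linear axis from 0) of 8 genes in the 18 libraries of batch 2 at 48 h; points are libraries, horizontal bars group means and whiskers SD (n = 3). HSPA5 and HSP90B1 were highest in N-Nme of all 6 groups, FOS was lowest in N-Nme, and IL1B and IL6 were lower in N-Nme than in the other 3 removals but higher than with CKI.

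Endoplasmic reticulum chaperones were higher in N-Nme than in any other removal. Each of the 15 genes of the list passed against the mean of the other removals, with a median log2 fold change of 0.61. All 15 were also higher against N-Omt (median 1.16) and against N-Mac (median 0.37), and 14 of 15 against N-Tri (median 0.40), beside medians of 0.01, 0.00 and 0.01 over all genes tested. The 14 passed against all 3 removals, where 3.13% of all genes did so. With N-Omt left out of the mean 15 of 15 were higher, with a median of 0.35. With N-Nme 1, 2 or 3 left out, 15 of 15 still passed against the mean of the others and against N-Mac, and 12 to 14 against N-Tri.

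The upstream sequences of the chaperone genes are shown because these genes moved together. The ER stress element, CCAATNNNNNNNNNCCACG, is the binding site of ATF6 with NF-Y, and was searched on both strands from 250 bases before to 50 bases after the transcription start in RefSeq promoters of GRCh38.p14. Promoters of all 15 genes were matched, and 5 held the element, compared with 22 of 27305 promoters (0.0806%) in all. The 15 genes were not drawn at random from all promoters, so these shares are not a test. Genes without the element were higher in N-Nme as well. A match is not evidence of an occupied site, and a part of the element in the differences was not tested. Stretches upstream of the start are given 5′ to 3′ on the gene's strand, with the element, in either orientation, in capitals. HSP90B1 held it on both strands.

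HSPA5 (chr9:125241379-125241421, minus strand): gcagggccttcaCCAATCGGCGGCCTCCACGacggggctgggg

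HSP90B1 (chr12:103930204-103930351, plus strand): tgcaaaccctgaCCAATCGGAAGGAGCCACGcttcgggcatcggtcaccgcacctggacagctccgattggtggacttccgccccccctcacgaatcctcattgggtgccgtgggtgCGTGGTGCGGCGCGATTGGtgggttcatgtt

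CRELD2 (chr22:49918542-49918584, plus strand): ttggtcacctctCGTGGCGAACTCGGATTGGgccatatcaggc

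CALR (chr19:12938372-12938414, plus strand): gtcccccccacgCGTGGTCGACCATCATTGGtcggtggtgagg

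XBP1 (chr22:28800591-28800633, minus strand): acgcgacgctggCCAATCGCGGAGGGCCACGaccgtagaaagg

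HSP90B1 encodes GRP94, the HSP90 of the endoplasmic reticulum. Its level was 3056, 3273 and 3262 CPM in N-Nme. It was 985, 1026 and 1023 CPM in N-Omt, 1883, 1849 and 1940.2 in N-Mac and 2357, 2365 and 2241 in N-Tri. The 3 N-Nme libraries lay above all 9 others, and the log2 fold change was 0.96 (SE 0.04, edgeR Benjamini-Hochberg adjusted p = 2.32e-17). With whole CKI the level was 553, 578 and 573 CPM, so that the order ran from CKI over N-Omt, N-Mac and N-Tri to N-Nme without overlap between neighbours.

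HSPA5, the luminal HSP70 known as BiP, was at 8077, 8428 and 8369 CPM in N-Nme. The other libraries ranged from 3240.4 to 6700.4 with a median of 5948 CPM, and again none reached N-Nme. The log2 fold changes were 1.33 against N-Omt, 0.47 against N-Mac and 0.37 against N-Tri, with adjusted p-values of 1.13e-18, 4.99e-08 and 1.3e-05 by edgeR. Untreated cells were at 2821, 2173 and 4064 CPM, and the spread among them was wider than in the treated groups.

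CRELD2, a factor of protein folding in the endoplasmic reticulum, was at 16.5, 15.4 and 16.6 CPM in N-Nme and 4.95 to 13.2 with a median of 10.0 CPM in the other removals, with a log2 fold change of 0.88 (SE 0.08). The co-chaperone SDF2L1 followed with 0.86, the chaperone HYOU1 with 0.78, the disulfide isomerase PDIA4 with 0.76 and the secreted factor MANF with 0.70. XBP1, the transcription factor activated by IRE1, changed least, with 0.20, and DNAJB9 was the gene that did not pass against N-Tri (0.06, 95% confidence interval -0.03 to 0.16). HYOU1 also showed the variation inside the group, at 1547, 1354 and 1227 CPM in the 3 N-Nme libraries.

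**Figure D2:**
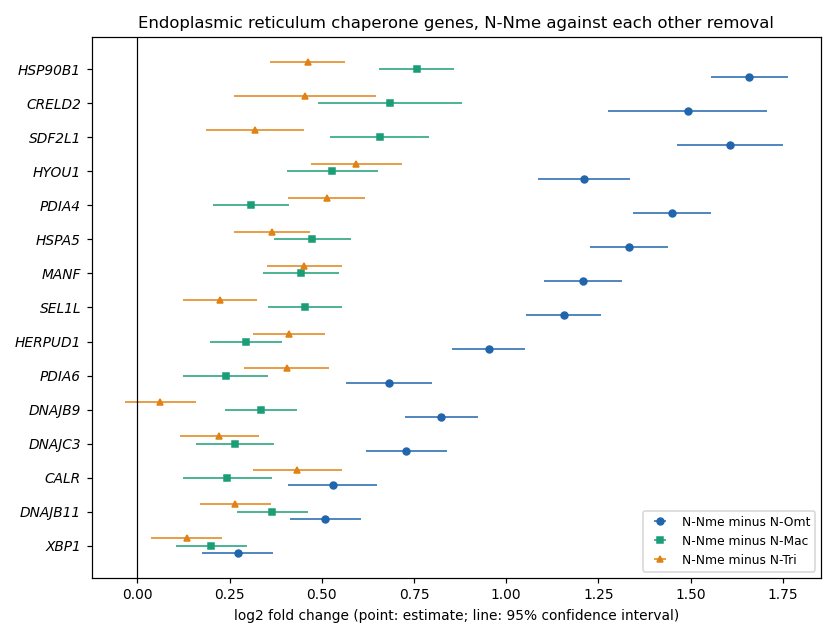
Log2 fold change (x axis) of the 15 endoplasmic reticulum chaperone genes (y axis) in N-Nme against N-Omt (circles), N-Mac (squares) and N-Tri (triangles); lines are 95% confidence intervals from 12 libraries. All points lie to the right of 0, with the differences from N-Omt the largest for every gene.

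Other stress lists were mixed. Among 19 ATF4 targets 7 were higher (4 without N-Nme 1) and 4 lower against the mean of the others, beside 23.9% higher and 20.9% lower over all genes. With N-Omt left out of the mean 7 were higher and 1 lower, beside 10.3% and 9.94% over all genes. SLC7A11, the cystine transporter, was at 389.7, 438 and 444 CPM in N-Nme and 272, 264 and 292 in N-Mac, with a log2 fold change of 0.35 (SE 0.04), while the mitochondrial one-carbon enzyme SHMT2 was higher by 0.41. The 12 p53 targets were split into 3 higher and 4 lower (median -0.02), and into 0 higher and 2 lower with N-Omt left out of the mean. GDF15, a secreted stress factor in the p53 list, was lower, with a log2 fold change of -0.73, as was CDKN1A, the p21 inhibitor of cyclin-dependent kinases, with -0.51, with most of the difference against N-Omt (-1.08, against -0.31 for N-Mac and -0.14 for N-Tri, which did not pass). Of 14 heat shock chaperone genes 8 were higher and 2 lower, but 2 were higher and 1 lower with N-Omt left out of the mean, and 2 were higher and 4 lower against N-Tri. HSPA1B, which shares reads with the near-identical HSPA1A and is therefore uncertain, was higher against N-Omt (1.06) and N-Mac (0.15) and lower against N-Tri (-0.19). HSPB8, a small heat shock protein, was lower (-0.53).

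Genes of mitosis were higher in N-Nme as well. All 29 passed against the mean of the others, with a median log2 fold change of 0.99. Against N-Omt all 29 were higher (median 2.04), against N-Mac 26 (median 0.45) and against N-Tri 27 (median 0.48), with none lower. Against all 3 removals 25 were higher, where 3.13% of all genes were. With 1 N-Nme library left out the counts were 24 to 25 against N-Mac and 25 to 27 against N-Tri. The level in N-Nme was nevertheless below that with whole CKI, where 28 of the 29 were lower in N-Nme (median -0.67), and 5416 genes (35.8% of 15115) were higher and 5398 (35.7%) lower over all genes.

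MKI67, the proliferation antigen Ki-67, was at 61.7, 63.2 and 59.5 CPM in N-Nme. It was 5.47, 6.54 and 6.11 CPM in N-Omt, 48.2, 49.6 and 54.9 in N-Mac and 39.8, 41.2 and 36.9 in N-Tri. N-Nme was the highest of the 4 removals in every library, whereas CKI was at 126, 119 and 129 and untreated cells at 341, 350.4 and 302 CPM. The log2 fold change was 1.42 (SE 0.05, adjusted p = 3.35e-18 by edgeR), with 3.34 against N-Omt, 0.27 against N-Mac and 0.64 against N-Tri.

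KIF2C, a kinesin that depolymerises microtubules at kinetochores, was at 36, 30.5 and 29.8 CPM, and the other removals at 1.79 to 24.8 with a median of 20.1 CPM. Its 95% confidence interval against N-Mac, 0.25 to 0.65 on the log2 scale, did not include 0. KIF20A, a kinesin of cytokinesis, had the largest difference of the list from N-Mac (0.83) and from N-Tri (1.07). HMMR, a spindle protein, was among the 2 members with the largest difference (1.45), on levels of only 2.44, 2.72 and 3.1 CPM in N-Nme. CDC20, an activator of the anaphase-promoting complex, had nearly equal differences of 0.66, 0.50 and 0.53 from N-Omt, N-Mac and N-Tri. CDK1, the kinase that drives entry into mitosis, was at 41.3, 41.2 and 47.3 CPM in N-Nme, overlapped with N-Mac and N-Tri, and differed from N-Omt alone (2.87, with -0.11 to 0.20 against N-Mac and -0.18 to 0.12 against N-Tri as 95% confidence intervals).

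The cell-cycle homology region, TTTGAA, an element of promoters active in late cell cycle, was found on either strand in 16 of the 24 promoters matched among the 29 genes of mitosis, and in 4212 of 27305 promoters (15.4%). Of the 28 promoters matched for genes of DNA replication it was in 1. The stretches around the element in 3 genes of the list are given from the same build, 5′ to 3′ on the gene's strand and with each copy, in either orientation, in capitals. The genes of mitosis were not drawn at random from all promoters, so these shares are not a test. A match describes the sequence and is not evidence of an occupied site.

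MKI67 (chr10:128126435-128126482, minus strand): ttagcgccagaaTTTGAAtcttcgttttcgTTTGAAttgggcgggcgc

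HMMR (chr5:163460592-163460627, plus strand): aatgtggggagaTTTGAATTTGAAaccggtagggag

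BUB1B (chr15:40161034-40161063, plus strand): gggaccgttaaaTTTGAAacttggcggcta

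Genes of DNA replication behaved differently. Of 33 genes, 26 were higher and 1 lower against N-Omt (median log2 fold change 0.89), but against N-Mac 1 was higher and 9 lower (median -0.14), and against N-Tri 12 were higher and none lower (median 0.19). Over all genes 33.0% were higher and 31.5% lower against N-Omt, 15.0% and 15.9% against N-Mac, and 11.2% and 9.11% against N-Tri. When N-Nme 1, 2 or 3 was left out, 11, 6 and 9 of the 33 were lower against N-Mac, with 1 higher each time. Against N-Tri 11, 9 and 12 were then higher and 0, 0 and 1 lower. With N-Omt left out of the mean, 3 of the 33 were higher and 1 lower against the mean of N-Mac and N-Tri. There 27 of 29 genes of mitosis were higher, and over all genes 10.3% were higher and 9.94% lower. MCM10, a factor of replication initiation, was at 9.97, 9.49 and 9.81 CPM in N-Nme, 10.1, 9.31 and 9.96 in N-Mac and 0.801, 0.866 and 0.527 in N-Omt. GINS2, a helicase subunit, was higher than in N-Omt (2.82) and N-Tri (0.94) and stood at -0.24 against N-Mac (95% confidence interval -0.52 to 0.05). MCM3, a helicase subunit of higher level, was lower than in N-Mac (-0.38) and higher than in N-Tri (0.26). CDC6, the origin licensing factor, was the member that passed against all 3 removals, with 1.67, 0.24 and 0.39 against N-Omt, N-Mac and N-Tri.

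**Figure D3:**
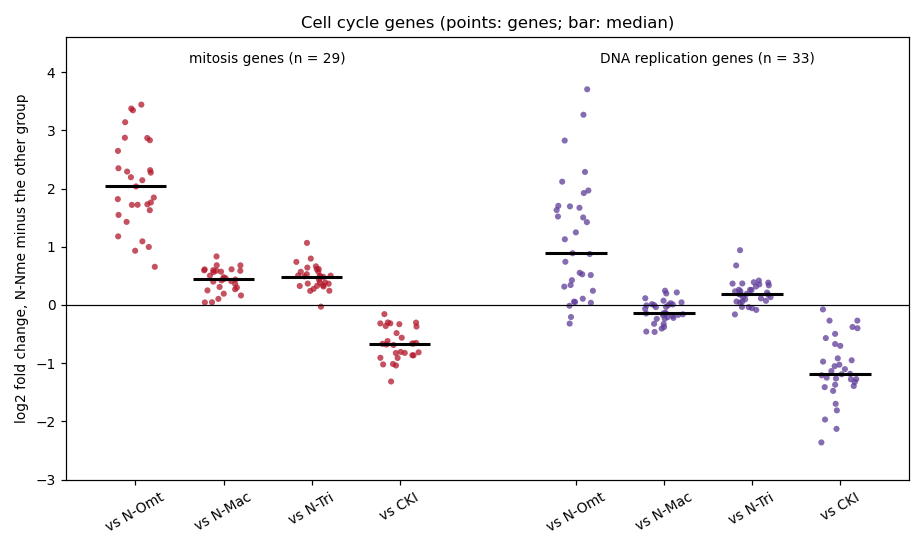
Log2 fold change (y axis) of N-Nme against N-Omt, N-Mac, N-Tri and CKI (x axis) for 29 genes of mitosis (red) and 33 of DNA replication (purple); points are genes and bars medians, with points spread sideways at random. The mitosis medians are 2.04, 0.45 and 0.48 against the 3 removals, while those of replication are 0.89, -0.14 and 0.19, and both are below 0 against CKI.

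Cytokines, chemokines and genes of NF-kB feedback were lower in N-Nme. Of 19 tested genes 15 were lower and 1 higher against the mean of the others, with a median log2 fold change of -0.57. All 19 were lower than in N-Mac (median -1.05), and 15 were lower than in N-Tri (median -0.44), with none higher. Against N-Omt 9 were lower and 6 higher. Over all genes 20.9% were lower and 23.9% higher against the mean, and 15.9% were lower against N-Mac and 9.11% against N-Tri. Against N-Omt 31.5% of all genes were lower and 33.0% higher. With an N-Nme library left out 19 of 19 list genes were lower against N-Mac and 14 to 15 against N-Tri. With N-Omt left out of the mean 18 of 19 were lower (median -0.77). Relative to whole CKI 15 of 20 tested genes were higher in N-Nme and 3 lower, beside 35.8% and 35.7% over all genes.

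IL1B, which encodes interleukin-1 beta, was at 37.5, 41.6 and 31.5 CPM in N-Nme. It was 243, 235 and 231 CPM in N-Omt, 163, 165 and 150.3 in N-Mac and 69.9, 67.1 and 77.5 in N-Tri, so the 4 removals did not overlap. The log2 fold change was -1.92 (SE 0.06, adjusted p = 3.84e-19 by edgeR), which is 3.78-fold lower, whereas CKI was at 11.6, 10.7 and 11 CPM.

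IL6, the gene of interleukin-6, was at 39.1, 39.1 and 34.6 CPM in N-Nme, 107, 106 and 99.8 in N-Omt, 179, 183 and 177 in N-Mac and 61.7, 62.3 and 67.9 in N-Tri. Its level was highest in N-Mac, and the differences from N-Nme were -1.47, -2.26 and -0.77 on the log2 scale for N-Omt, N-Mac and N-Tri. CCL20, a chemokine, was lower, with a log2 fold change of -1.91 (SE 0.19), with levels of 1.24, 0.715 and 0.755 CPM in N-Nme and 6.91, 6.72 and 7.14 CPM in N-Mac. TNFAIP3, the A20 inhibitor of NF-kB, was lower as well (-0.84), as was NFKBIA, which encodes the inhibitor IkB alpha (-0.49). The interleukin-1 alpha gene IL1A (-0.81) and the growth factor gene CSF2 (-1.14) were lower against each of the 3 removals.

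The neutrophil chemokines took a different order. CXCL8 was at 794, 876 and 858 CPM in N-Nme, 686, 730.0 and 708 in N-Omt, 2273, 2380.5 and 2273 in N-Mac and 1203, 1230.3 and 1397 in N-Tri. It was thus lower in N-Nme than in N-Mac (-1.45) and N-Tri (-0.60) but higher than in N-Omt (0.25, adjusted p = 0.000293 by edgeR). CXCL1 and CXCL2 had the same signs, with 0.26, -1.56 and -0.42 and 0.73, -1.31 and -0.53 against N-Omt, N-Mac and N-Tri. TNF had few reads, with 0.637, 0.47 and 0.625 CPM in N-Mac and 0, 0.0953 and 0.119 CPM in N-Nme, and passed against N-Mac alone.

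**Figure D4:**
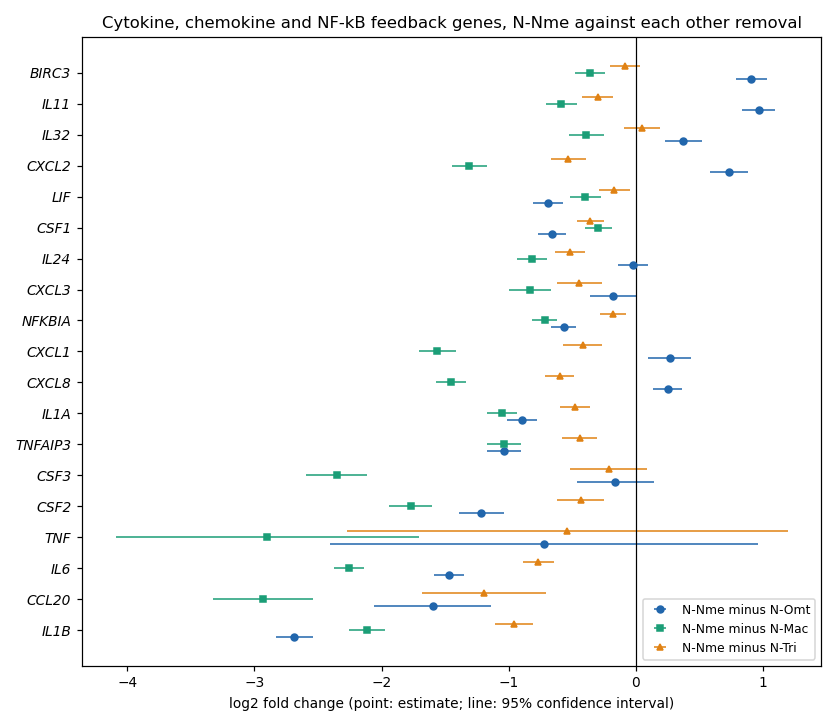
Log2 fold change (x axis) of 19 cytokine, chemokine and NF-kB feedback genes (y axis) in N-Nme against N-Omt (circles), N-Mac (squares) and N-Tri (triangles); lines are 95% confidence intervals. All squares lie to the left of 0, while 6 circles lie to its right with intervals clear of 0, and TNF has the widest intervals.

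Immediate early genes were lower too. Of 27 genes 17 were lower and 1 higher against the mean of the others, with a median log2 fold change of -0.26. Against N-Omt, N-Mac and N-Tri 20, 14 and 17 were lower and 3, 2 and 1 higher. When an N-Nme library was left out 10 to 13 were lower against N-Mac. Over all genes 20.9% were lower against the mean, and 31.5%, 15.9% and 9.11% against N-Omt, N-Mac and N-Tri. FOS, an AP-1 subunit, was at 12.6, 14.5 and 12.7 CPM in N-Nme. It was 91.1, 87.6 and 88 CPM in N-Omt, 52.1, 54.2 and 53.5 in N-Mac and 26.8, 26.2 and 59.3 in N-Tri. N-Nme was below every other library, and N-Tri 3 lay far above N-Tri 1 and N-Tri 2, as it did for FOSB and EGR1. The log2 fold change was -2.08 (SE 0.16), and -1.92 without N-Tri 3. FOSB, its paralogue, was lower at -1.49, and JUN, DUSP1 and FOSL2 at -0.40, -0.68 and -0.35. EGR1, an immediate early zinc finger factor, was lower than in N-Mac (-0.99) and higher than in N-Omt (0.72). KLF10, a transcription factor induced by TGF-beta, was the gene that was higher against the mean of the others (0.24).

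Genes of cholesterol synthesis were lower in N-Nme, 21 of 24 with 1 higher against the mean of the others (median log2 fold change -0.28). Against N-Omt, N-Mac and N-Tri 20, 16 and 11 were lower and 3, 0 and 1 higher. When N-Nme 1, 2 or 3 was left out, 10, 10 and 12 were lower against N-Tri and 0, 0 and 2 higher. Over all genes 20.9% were lower against the mean, and 31.5%, 15.9% and 9.11% against N-Omt, N-Mac and N-Tri. EBP, the sterol isomerase, was at 62.3, 53 and 47.6 CPM in N-Nme, 203, 192 and 179 in N-Omt, 118, 109 and 98.7 in N-Mac and 66.4, 63.1 and 70.9 in N-Tri, with a log2 fold change of -1.04 (SE 0.06). MSMO1, a sterol methyl oxidase, was lower at -0.63. Against whole CKI 23 of 24 cholesterol genes were lower, beside 35.7% over all genes. Fatty acid synthesis gave 7 lower and 1 higher of 11, beside 20.9% lower over all genes, with FADS2 (-0.28) and ACSS2 (-0.26) the members with the largest differences. With N-Omt left out of the mean 2 of the 11 were lower, beside 9.94% over all genes, and against N-Tri 2 were lower with a median of 0.02. Targets of the liver X and PPAR receptors gave 7 lower and 2 higher of 12, and 3 lower and 1 higher with N-Omt left out, where the transporter ABCG1 (-1.29) and the lipase inhibitor ANGPTL4 differed mainly from N-Omt (-2.50 and -2.35).

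Among signalling lists, 12 of 23 TGF-beta genes were lower and none higher against the mean of the others, beside 20.9% lower over all genes. With N-Omt left out of the mean 10 were lower and 1 higher. Against N-Omt, N-Mac and N-Tri 15, 7 and 7 were lower and 2, 3 and 0 higher. The list was led by ID2 (-0.97), which differed from N-Omt alone, and by TGFBI (-0.87), a matrix protein. TGFBI was lower against each removal at 40.1, 36 and 32.3 CPM in N-Nme. Growth factor receptors and ligands gave 13 lower and 3 higher of 20, beside 20.9% lower over all genes, and 7 lower and 2 higher with N-Omt left out of the mean, among them the binding proteins IGFBP4 (-0.79) and IGFBP6 (-0.47). Glycolysis and hypoxia genes gave 13 lower and 4 higher of 23, and 14 lower and none higher with N-Omt left out, with ADM, the gene of the vasodilator adrenomedullin, at 50.9, 47.9 and 50.4 CPM in N-Nme against 67.7 to 103 with a median of 91 CPM in the others, and PFKFB3, a regulator of glycolysis, lower at -0.46. Of 8 aryl hydrocarbon receptor genes 4 were lower and none higher, beside 20.9% lower over all genes, and 3 were lower with N-Omt left out. Against N-Omt, N-Mac and N-Tri 5, 2 and 3 were lower and 1, 0 and 0 higher (medians -0.27, -0.05 and -0.07). For all lists of this paragraph, the shares over all genes with N-Omt left out were 10.3% higher and 9.94% lower. CYP1A1, the classic target of this receptor, was at 3.5, 3.53 and 4.53 CPM in N-Nme, 12.1, 11.7 and 11.7 in N-Omt, 9.05, 10.6 and 10.4 in N-Mac, 6.55, 4.86 and 5.25 in N-Tri and 73.8, 68.7 and 76.6 with whole CKI. All single removals were therefore below CKI, with N-Nme the lowest of them, and the log2 fold change from the other removals was -1.16 (SE 0.11). The repressor AHRR differed from N-Omt alone (-1.23).

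Because N-methylcytisine is a ligand of nicotinic receptors, their subunits were examined. Of 16 subunit genes 13 did not have enough reads to be tested, with at most 19 reads in any library. CHRNB1, the beta 1 subunit, was at 66.1, 60.9 and 58.9 CPM in N-Nme, 41.3, 38.6 and 38.5 in N-Omt, 61.5, 55.8 and 57.7 in N-Mac and 51.7, 56.3 and 50.2 in N-Tri. It was higher than in N-Omt (0.65) and N-Tri (0.23) but its difference from N-Mac had a 95% confidence interval of -0.04 to 0.21. CHRNA5 and CHRNA7, at no more than 3.90 and 1.55 CPM in any of the 12 libraries, did not pass in any of the 4 comparisons, with intervals of -0.56 to 0.09 and -0.12 to 0.85 against the mean of the others. ACHE, which encodes the acetylcholine-degrading enzyme, was at 1.68, 1.76 and 2.22 CPM in N-Nme and 3.13 to 6.02 with a median of 3.86 CPM in the others, and was lower against all 3 removals (-1.11, SE 0.14). SLC44A1, a choline transporter, had a log2 fold change of -0.11 that did not pass when N-Nme 1, N-Nme 3, N-Omt 2, N-Mac 2, N-Mac 3 or N-Tri 3 was left out (-0.08 without N-Nme 1).

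The lists on cell shape and matrix are read beside 23.9% higher and 20.9% lower over all genes. Where N-Omt was left out of the mean, these shares were 10.3% and 9.94%. Actin cytoskeleton genes were split into 8 higher and 10 lower of 39 (5 and 5 without N-Nme 2, 7 and 5 with N-Omt left out of the mean), with DIAPH3, an actin-nucleating formin, higher by 1.18 and IQGAP3, a scaffold protein of dividing cells, by 1.01. Both differed mainly from N-Omt (2.93 and 2.24), with 0.33 and 0.29 against N-Mac and 0.29 and 0.51 against N-Tri. Focal adhesion genes gave 7 higher and 13 lower of 29, and 4 higher and 7 lower with N-Omt left out, with the collagen gene COL4A1 lower (-0.90) and the adaptor gene PARVA higher (0.64), and matrix proteases and inhibitors 5 higher and 11 lower of 24, with 2 higher without N-Nme 2 and 2 higher and 11 lower with N-Omt left out. The collagenase gene MMP1 was at 438, 435 and 411 CPM in N-Nme, 93.5, 97.1 and 96.7 in N-Omt, 360.2, 346 and 369 in N-Mac and 373, 359 and 382 in N-Tri, so that N-Nme was the highest of the 4, and the inhibitor gene TIMP3 was lower at -0.65. Of the cadherins and EMT regulators 1 was higher and 8 lower of 15 (5 lower without N-Nme 3, 1 higher and 1 lower with N-Omt left out), where SNAI1 (-1.52) was at 0.931, 0.572 and 1.35 CPM and differed from N-Omt and N-Mac but not past the threshold from N-Tri.

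Genes of the study's core list, which rests on its comparison of cells with and without CKI, were examined one by one. AKT1, a growth factor signalling kinase, was higher by 0.19, CDK4, a kinase of the G1 phase, by 0.17 and CCND1, the gene of cyclin D1, by 0.15, the last mainly against N-Mac (0.31). JAK2, a cytokine receptor kinase, passed with 0.25 but did not pass under DESeq2, with N-Omt left out of the mean (0.17), or without N-Nme 3 (0.11), N-Omt 1 (0.22), N-Omt 2 (0.23) or N-Tri 3 (0.24). CDK4 did not pass without N-Nme 1 (0.09) or with N-Omt left out of the mean (0.13). Other members did not pass against the mean of the others: APC (0.11), CTNNB1 (0.08), RB1 (0.06), PIK3CA (0.05), AKT2 (0.01) and CDH1 (-0.60). ESR1 had too few reads to be tested. Over all genes 23.9% were higher. ACTB, the beta-actin gene often used as a reference, was itself 0.13 higher (SE 0.04), with 0.03 against N-Omt.

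Lists for translation and housekeeping varied with single libraries. Of 76 cytosolic ribosomal protein genes 6 were higher and 12 lower against the mean of the others, and the lower ones numbered 36 without N-Nme 1, 1 without N-Nme 2 and 7 without N-Mac 1, beside 3 with N-Omt left out of the mean. Of 31 proteasome subunits 3 were higher and 6 lower (13 without N-Nme 1, 1 with N-Omt left out), and of 73 respiratory chain subunits 10 were higher and 14 lower (27 lower without N-Nme 1, 2 higher and 6 lower with N-Omt left out). The interferon-stimulated genes were split into 5 higher (3 without N-Nme 1) and 7 lower of 31, below or near the 23.9% and 20.9% over all genes, and into 8 higher and 1 lower with N-Omt left out. For all lists of this paragraph, the shares over all genes with N-Omt left out were 10.3% higher and 9.94% lower. The apoptosis regulators were split into 8 higher (4 without N-Nme 2 or without N-Nme 3) and 7 lower of 24, and into 2 higher and 5 lower with N-Omt left out. Medians of the lists against each removal are compared in the plot of list medians.

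**Figure D5:**
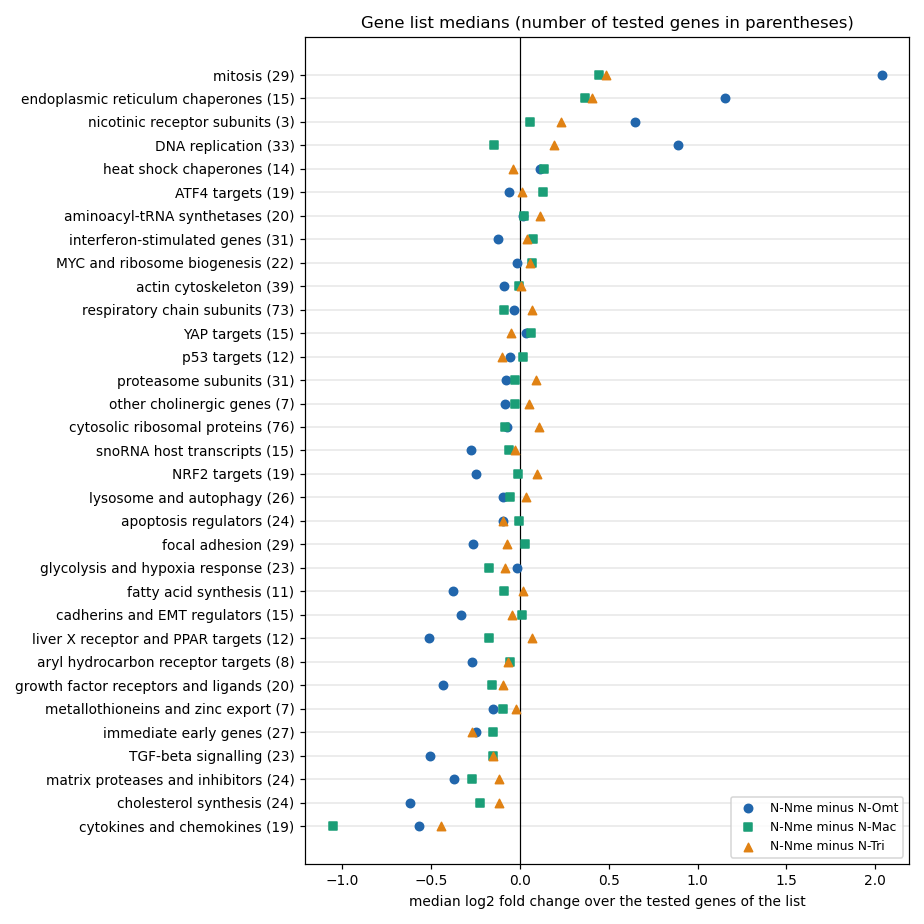
Median log2 fold change (x axis) over the tested genes of each gene list (y axis, number of genes in parentheses) in N-Nme against N-Omt (circles), N-Mac (squares) and N-Tri (triangles). Mitosis and endoplasmic reticulum chaperones lie to the right of 0 in all 3 comparisons and cytokines to the left, whereas DNA replication changes side between N-Omt and N-Mac.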

How the data were processed

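Cells were exposed in triplicate and poly(A)-selected RNA was sequenced in paired ends. The deposited values are raw counts of reads per gene made by the authors. The submitters' processing notes name FastQC 0.11.4, Trim Galore 0.3.7, STAR 2.5.3a, Subread 1.5.2 with featureCounts, edgeR 3.22.3 and the hg19 genome build, and the strand setting and treatment of multiply mapped reads were not given in the sources used here. Genes that share reads with near-identical copies are therefore uncertain. Groups were taken from the sample labels.

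Here counts were filtered with filterByExpr, scaled with TMM and fitted with edgeR 4.0.16 (limma 3.58.1, R 4.3.3) with 1 coefficient per removal over 12 libraries. The quasi-likelihood test compared N-Nme with the mean of the other coefficients and with each of them, at a Benjamini-Hochberg adjusted p below 0.05 over all genes tested. N-Nme was compared with CKI in a fit of 18 libraries, whose TMM scale also gave the printed CPM, and SE is the log2 fold change over the root of the F statistic. The scripts were tested on simulated data. Genes were named where they passed against all 3 removals in 1 direction at a mean of at least 5 CPM (10 largest per direction), as the 2 called members of each list with the largest change, or as nicotinic subunits, ACTB and core genes. Other list members are named as examples and were chosen after their values were seen. Members and lists were chosen with earlier results of these data known. Promoters came from RefSeq for GRCh38.p14, which is not the build of the counts. Values of a few genes are not reported here. Alternatives were DESeq2 1.42.0, other scalings, filters and thresholds, a replicate block, left-out libraries and groupings.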

Additional observations from a re-analysis of the deposited data

Results flagged for a closer look

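Of 225 genes examined, 20 differed from N-Nme in opposite directions for 2 removals, each passing the test, and the direct test between those 2 removals passed as well. Over all 14803 tested genes 815 had opposite calls against 2 removals, a count that did not require the direct test to pass. Differences are given on the log2 scale for the pair of removals farthest apart.

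N-Omt was below N-Mac, with N-Nme between them, for the chemokine genes CXCL1 (-1.83), CXCL2 (-2.04) and CXCL8 (-1.71), the cytokine genes IL11 (-1.55) and IL32 (-0.76), the NF-kB target BIRC3 (-1.27), and the signalling genes EGR1 (-1.71) and DUSP6 (-0.43). The same order held for the genes of replication and S phase CCNE2 (-2.39), TK1 (-1.73), MCM6 (-1.11) and POLA2 (-0.88) and for the sterol reductase gene TM7SF2 (-0.69). N-Omt was above N-Mac for the interferon-stimulated gene RSAD2 (1.87) and for JUND (0.89).

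N-Omt was above N-Tri for the sterol dehydrogenase gene NSDHL (0.95) and the polymerase subunit gene POLR1C (0.95), and below it for HSPA1B (-1.24), whose reads are shared with HSPA1A. N-Mac was above N-Tri for the helicase subunit genes MCM3 (0.64) and MCM4 (0.54). Groups of 3 libraries were not tested for single libraries far from the rest.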

How the results depend on the processing

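When a fold change of 2 in either direction was also required (1 on the log2 scale), 317 genes passed against the mean of the others, 1605 against N-Omt, 225 against N-Mac, 53 against N-Tri, 16 against all 3 and 2412 against CKI. All 16 that passed against all 3 were lower in N-Nme, and 0 were higher. With the other 3 removals as 1 group 17 passed, and with N-Omt left out of the mean, an alternative chosen after seeing the data, 2992. Under other scalings, filters, DESeq2 and the 18-library fit the counts stayed within 1.5 times (DESeq2 gave 6131, 9083, 4149, 2790, 812 and 10499 in the same order of comparisons). Leaving out 1 library gave 5445 to 6716 against the mean of the others, 8857 to 9660 against N-Omt, 3259 to 5336 against N-Mac, 1721 to 4067 against N-Tri, 578 to 936 against all 3 and 10257 to 10618 against CKI.

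Replicate numbers did not pair the libraries: correlations of same-numbered deviations ran from -0.0383 to 0.102, and 5 of 12 libraries matched best with their own number. The replicate block gave 6899, 9710, 4944, 3419, 1008 and 10850 genes and changed no call among the named genes.

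With N-Omt left out of the mean the direction turned for AHRR (0.0017), HSPA1B (-0.0171), RSAD2 (0.1627) and POLR1C (0.0708). For HSPA1B and POLR1C the difference from N-Mac (0.15 and -0.10) had the same sign as that from N-Omt. Depth limits genes near the filter, such as TNF, CDH1 and most nicotinic subunits. How much compound remained in each mixture and whether the libraries were separate cultures cannot be read from these data.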
